A study of Mus musculus with 6 samples.

Results

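The Ms4a family was examined through 9 of its genes in EGFP-sorted cells of the embryonic mouse main olfactory epithelium. The genes were chosen by symbol and are Ms4a1, Ms4a4a, Ms4a4b, Ms4a4c, Ms4a5, Ms4a6b, Ms4a6c, Ms4a6d and Ms4a7. They are 9 of 19938 genes tested, and a gene with several probe sets was read from the one of highest mean signal. The cells came from E18.5 embryos on a C57BL/6 background that were heterozygous (Fezf1 +/-) or null (Fezf1 -/-) for Fezf1, which encodes a transcription factor made in the developing olfactory epithelium and forebrain. The targeted allele puts EGFP under the Fezf1 promoter, so both genotypes carry at least 1 reporter allele, the heterozygous cells are the control, and no wild-type cells were compared. Each sort gave 1 Affymetrix 1.0 ST array, for 3 heterozygous and 3 null arrays, and the labels do not say whether an array held 1 embryo or a pool.

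Ms4a proteins are small and span the membrane several times. Most are known from blood and tissue immune cells: Ms4a1 is the B cell antigen CD20, Ms4a4b is found on T cells, and Ms4a4a, Ms4a6c, Ms4a6d and Ms4a7 are known from macrophages and monocytes. In the olfactory epithelium of adult mice, Ms4a proteins are also chemoreceptors of the necklace neurons, sensory neurons that signal through the guanylyl cyclase Gucy2d and lack odorant receptors. The same gene can therefore be read from an immune cell or from a neuron in this tissue, and the arrays were compared for which of those genes the Ms4a signals moved with.

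RefSeq promoter sequences of GRCm38.p6, from 250 bases before to 50 after a transcription start, matched 7 of the 9 genes with 8 promoters. Ms4a1 and Ms4a6d had no entry. The 250 bases before the start are shown for 2 pairs of genes, each adjacent in the order of the Ms4a genes though other genes lie between. They were picked because one pair moved together on the arrays and the other did not. In Ms4a6c and Ms4a6b, whose signals were highest on the same array, capitals mark the longest run of letters found in both, 48 bases. In Ms4a4c and Ms4a4b, of which only Ms4a4c was high on that array, capitals mark GAGGAA, a form of the binding site of the myeloid factor PU.1.
Ms4a6c, chr19:11469118-11469367, plus strand: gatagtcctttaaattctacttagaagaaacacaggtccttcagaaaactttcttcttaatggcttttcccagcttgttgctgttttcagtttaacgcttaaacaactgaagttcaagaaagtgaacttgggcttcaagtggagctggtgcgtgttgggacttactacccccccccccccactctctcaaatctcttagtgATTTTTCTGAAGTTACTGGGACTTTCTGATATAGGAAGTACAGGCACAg
Ms4a6b, chr19:11518309-11518558, plus strand: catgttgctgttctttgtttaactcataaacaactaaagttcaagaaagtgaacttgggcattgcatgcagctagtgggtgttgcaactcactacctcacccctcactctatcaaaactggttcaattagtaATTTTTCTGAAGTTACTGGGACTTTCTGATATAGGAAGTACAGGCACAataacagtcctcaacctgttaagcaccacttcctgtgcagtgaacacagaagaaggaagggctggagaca
Ms4a4c, chr19:11407411-11407660, plus strand: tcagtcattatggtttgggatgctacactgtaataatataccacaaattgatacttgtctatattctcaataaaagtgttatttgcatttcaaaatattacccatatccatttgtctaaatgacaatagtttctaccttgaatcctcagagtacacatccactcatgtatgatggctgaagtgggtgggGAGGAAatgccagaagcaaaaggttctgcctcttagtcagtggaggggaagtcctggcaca
Ms4a4b, chr19:11443308-11443557, plus strand: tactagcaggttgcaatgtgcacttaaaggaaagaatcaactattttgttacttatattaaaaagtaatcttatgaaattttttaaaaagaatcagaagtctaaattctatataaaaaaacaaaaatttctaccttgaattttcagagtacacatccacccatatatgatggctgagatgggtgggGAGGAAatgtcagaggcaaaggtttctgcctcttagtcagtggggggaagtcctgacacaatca

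The run shared by Ms4a6b and Ms4a6c was the longest among 27 pairs of promoters of different members, and it began 118 and 49 bases before the start. The next longest, 20 bases, was shared by Ms4a4b and Ms4a4c, and the median over pairs was 8. GAGGAA, searched on both strands, was found in 3 of the 8 member promoters: 61 bases before the start of Ms4a4c, 64 before that of Ms4a4b, and 43 after 1 of the 2 starts of Ms4a7. It was found in 28.3% of all 32851 promoters in the table and in 18 of 24 promoters of macrophage marker genes. CCCNNGGG, the core of sites of the neuronal Ebf factors, was in 0 member promoters and in 13.7% of all promoters. It was in 3 of 24 promoters of macrophage marker genes, and promoters of neuron marker genes were not searched. With 8 member promoters, 0 cannot be set apart from the share of all promoters. These are matches of letters, not sites of binding. Other forms of the PU.1 site were not searched for, so a promoter without GAGGAA may still hold such a site.

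The labels were first checked on the deleted gene. Fezf1 stood at 11.23 ± 0.09 on the heterozygous and 5.92 ± 0.36 on the null arrays (log2 signal, SD, n = 3 each; difference -5.31, SE 0.19, limma adjusted p = 0.000755). One array, null replicate 1, was unlike the rest: across genes its correlation with each of them was at most 0.935, while any 2 of the other 5 correlated at 0.975 or more. The members' differences are therefore given with and without it. Differences are null minus heterozygous on the log2 scale, the test is limma's moderated test, adjusted by Benjamini-Hochberg over the 19938 genes at a threshold of 0.05, and 3 arrays per group limit the precision. The p-values measure only the spread between these arrays, which may be technical.

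Of the 9 members, 6 had their highest signal on null replicate 1 and spanned at most 0.57 log2 units over the other 5 arrays. The other 3 were not highest on null replicate 1. The 6 were Ms4a4a, Ms4a4c, Ms4a6b, Ms4a6c, Ms4a6d and Ms4a7, each more than 0.5 above its next highest array there, as were 9.03% of all genes. None of the 9 passed limma's test between the genotypes, where 0.552% of genes were called, and 0 had an unadjusted p under 0.05, against 9.48% of all genes. Nor was a member called in the 5 arrays without null replicate 1, where 2.66% of genes were called; there, Ms4a6c alone had an unadjusted p under 0.05, as did 16.3% of all genes.

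**Figure D1:**
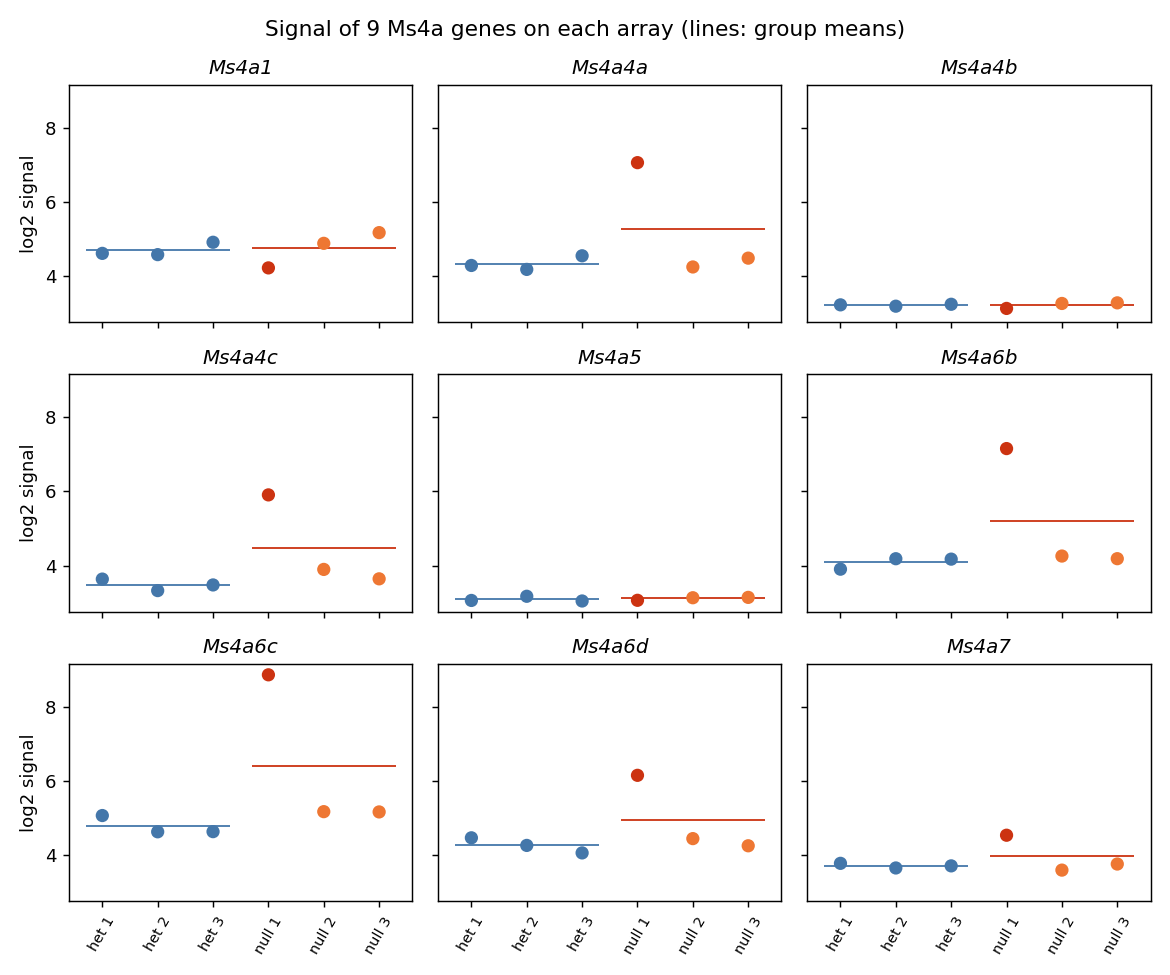
Log2 signal of the 9 Ms4a genes (vertical axis, same scale in each panel) on each of the 3 heterozygous (het, blue) and 3 null arrays (null 1 red, null 2 and 3 orange), with group means as lines. In 6 panels null 1 lies above every other array, and in those of Ms4a1, Ms4a4b and Ms4a5 it does not.

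Ms4a6c, which is known from monocytes and macrophages, had the largest shift of the 9. Its heterozygous arrays read 5.07, 4.63 and 4.63 and its null arrays 8.86, 5.17 and 5.16. Null replicate 1 was thus 3.69 log2 units, or 12.9-fold, above the mean of the other null arrays, and a shift at least as large was seen in 0.231% of genes. All 3 null values lay above the heterozygous values, though the lowest of them by only 0.10. The group difference was 1.62 (SE 1.01, limma adjusted p = 0.666), and without null replicate 1 it was 0.39 (SE 0.15, adjusted p = 0.274).

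Ms4a6b, a member of the same subgroup, read 3.90, 4.18 and 4.17 on the heterozygous arrays and 7.15, 4.26 and 4.18 on the null arrays. The 5 arrays other than null replicate 1 spanned 0.35 log2 units, and that array exceeded the mean of null replicates 2 and 3 by 2.93. The group difference was 1.11 (SE 0.80, adjusted p = 0.709 by limma) and fell to 0.13 (SE 0.12, adjusted p = 0.630) without that array.

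Ms4a6d, the third of the subgroup, read 4.47, 4.26 and 4.06 on the heterozygous arrays and 6.15, 4.44 and 4.25 on the null arrays. It was high on null replicate 1 only, by 1.80, and its other null values lay inside the heterozygous range. Its difference was 0.69 (SE 0.51, limma adjusted p = 0.711), against 0.09 (SE 0.14) without null replicate 1. The 3 Ms4a6 genes are similar in sequence, so a probe set of one may bind transcripts of another, and their signals are not fully separate measurements.

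Ms4a4a, a protein of alternatively activated macrophages, read 4.28, 4.18 and 4.54 in heterozygous cells and 7.06, 4.24 and 4.48 in null cells. The other null arrays lay within the heterozygous range, so the difference of 0.92 (SE 0.74, limma adjusted p = 0.725) became 0.03 (SE 0.14, adjusted p = 0.951) without null replicate 1. Ms4a4c read 3.63, 3.32 and 3.48 in heterozygous cells and 5.90, 3.89 and 3.64 in null cells. Its 3 null values were above all heterozygous values, the lowest of them by 0.00685, and its difference of 1.00 (SE 0.59, adjusted p = 0.653 by limma) was 0.29 (SE 0.13, adjusted p = 0.344) without that array. Ms4a7, a gene of tissue macrophages, showed the smallest shift of the 6, with 3.78, 3.65 and 3.71 against 4.53, 3.59 and 3.76. Its difference was 0.25 (SE 0.25, adjusted p = 0.762 by limma) over all arrays and -0.04 (SE 0.10) without null replicate 1, so its sign turned.

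The 3 members that were not high on null replicate 1 include the B cell gene Ms4a1 and the T cell gene Ms4a4b. Whether other members are also made by lymphocytes was not examined. Ms4a1, the B cell antigen CD20, was lowest on null replicate 1: it read 4.61, 4.58 and 4.91 on the heterozygous arrays and 4.22, 4.88 and 5.17 on the null arrays. The groups overlapped, and the difference was 0.06 (SE 0.26, limma adjusted p = 0.947), or 0.33 (SE 0.14, adjusted p = 0.333) without that array. Ms4a4b, the T cell gene that lies between Ms4a4c and Ms4a6c, lay between 3.13 and 3.28 on all 6 arrays, with a difference of 0.01 (SE 0.09), or 0.05 (SE 0.09) without null replicate 1. Ms4a5, a gene known from testis, lay between 3.04 and 3.17, with a difference of 0.02 (SE 0.08), or 0.05 (SE 0.09) without that array.

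In 3 of the 9 members, Ms4a4c, Ms4a6b and Ms4a6c, all null values lay above all heterozygous values, as they did in 9.72% of all genes, and in 0 members did they lie below, as in 8.77% of all genes. For Ms4a6b this rested on 0.00105 log2 units. The median difference of the 9 was 0.69 over all arrays and 0.09 without null replicate 1, beside 0.02 and 0.02 for all genes tested. Without null replicate 1, 8 of 9 members had a positive difference, as did 55.3% of all genes. On every array other than null replicate 1, 7 members (all but Ms4a1 and Ms4a6c) lay below that array's lower quartile of genes, which was between 4.86 and 4.97. Ms4a1 lay below it on 4 arrays, null replicate 1 among them, and Ms4a6c on 2. Whether a signal that low was above background was not examined, so a fold measured from it is uncertain in size.

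Genes of macrophages were highest on the same array. Cd68, a lysosomal glycoprotein of macrophages, read 5.15, 5.27 and 5.04 on the heterozygous and 7.15, 5.56 and 5.34 on the null arrays. Like 3 of the Ms4a members, its null values all lay above the heterozygous ones, and its difference was 0.86 (SE 0.47, limma adjusted p = 0.628), or 0.30 (SE 0.12, adjusted p = 0.279) without null replicate 1. Its shift on that array was 1.70, between those of Ms4a7 and Ms4a6d. Of 28 macrophage markers, 27 were highest on null replicate 1, where 29.2% of all genes were highest, and Trem2 (shift 0.06) was the exception.

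The macrophage shifts ran from 0.06 to 3.79 with a median of 1.79, beside a median of -0.05 for all genes. Those of the 9 Ms4a members had a median of 1.80 but ran from -0.81 to 3.69. The 10 analysed Ms4a genes outside the member list ran only from -0.19 to 0.40. The Ms4a median therefore depends on which genes of the family were listed. The protease gene Ctss and the lysozyme gene Lyz2 shifted by 3.79 each, Mpeg1, a pore-forming protein of phagocytes, by 3.66, and the coagulation factor gene F13a1 by 2.41. Spi1, which encodes PU.1, shifted by 0.91. The summed linear signal of the 28 markers was 1158 to 1490 on the heterozygous arrays, 7626 on null replicate 1, and 1476 and 1367 on null replicates 2 and 3. That of the 9 Ms4a genes was 145 to 158, 929, and 171 and 176 on the same arrays. By limma 0 of the 28 were called over all arrays, beside 0.552% of all genes. At an unadjusted p under 0.05 stood 1 of them, Trem2, beside 9.48% of all genes. Without null replicate 1 the count called was also 0, beside 2.66% of all genes. In bulk RNA of sorted cells, more cells of a type and more RNA per cell cannot be told apart.

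**Figure D2:**
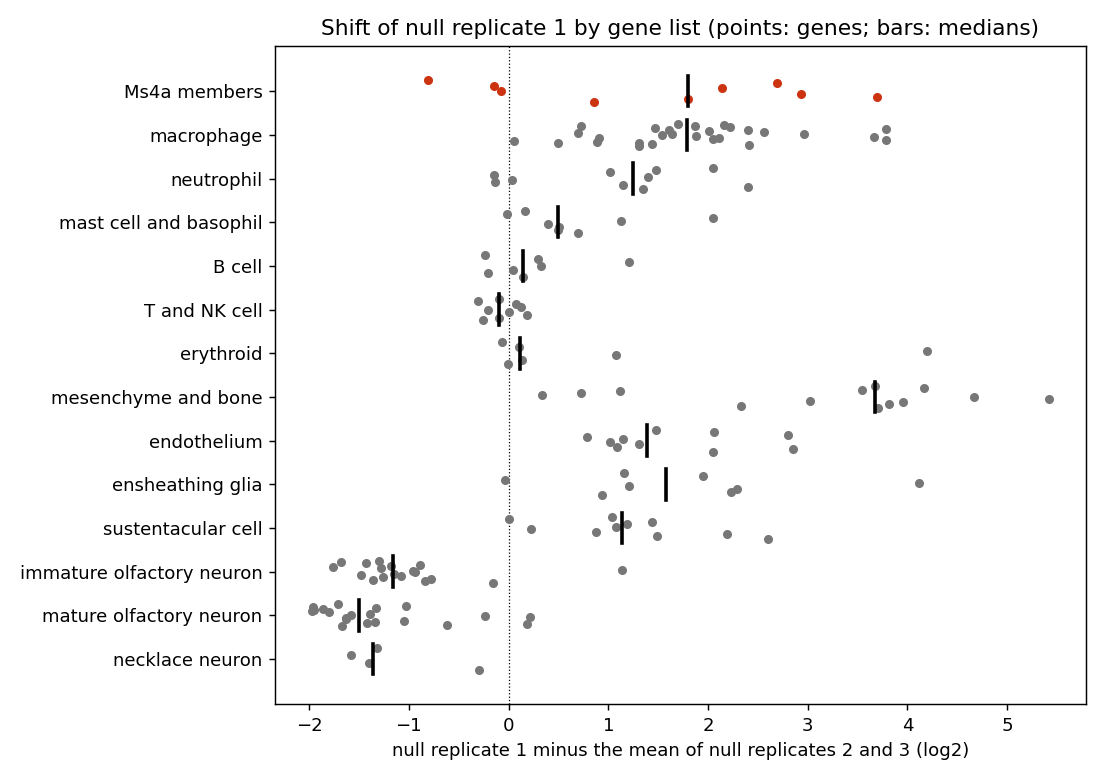
Signal on null replicate 1 minus the mean of null replicates 2 and 3 (horizontal axis, log2) for each gene (points) of the Ms4a members (red) and 13 cell type lists (grey), with medians as bars. The Ms4a median of 1.80 and the macrophage median of 1.79 lie to the right of 0, while the 3 neuron lists lie at medians of -1.16 to -1.50. The Ms4a points themselves run from -0.81 to 3.69.

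Other cell types were also high on null replicate 1, so its shift was not limited to macrophage genes. Median shifts were 3.67 for 13 mesenchyme and bone genes, 1.58 for 8 ensheathing glia genes, 1.39 for 10 endothelial genes, 1.25 for 10 neutrophil genes and 1.14 for 10 sustentacular genes. All 13 mesenchyme and 10 endothelial genes were highest there, led by abundance by Dcn (shift 3.02), Col1a1 (3.67) and Col1a2 (4.16) and by Eng (2.05), Cldn5 (1.31) and Flt1 (0.79). The summed linear signal of the mesenchyme list was 1243 to 2743 on the heterozygous arrays, 19927 on null replicate 1 and 1359 to 2021 on the other null arrays. The part of each of these cell types in the Ms4a signals was not tested.

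Lists of the lymphocytes that use Ms4a1 and Ms4a4b shifted less. The 7 B cell genes had a median shift of 0.15 (from -0.23 to 1.21, the highest being the adaptor Blnk) and the 9 T and NK cell genes one of -0.10 (from -0.30 to 0.19). Among mast cell genes, the carboxypeptidase Cpa3 shifted by 2.05 and the receptor tyrosine kinase Kit by 1.12, with a list median of 0.50. Ms4a2, the beta chain of the mast cell IgE receptor, stood between 3.45 and 3.74 on all arrays, with a shift of 0.17. Ms4a3, known from granulocyte precursors, stood between 4.06 and 4.39.

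Genes of the necklace neurons took another course than the 6 Ms4a genes. All 4 (Gucy2d, Car2, Pde2a and Cnga3) were higher on null replicates 2 and 3 than on any other array, null replicate 1 included. This order was not particular to them: 12 of 18 immature and 1 of 20 mature neuron markers had it. So did 1 of the 9 Ms4a members, the nearly flat Ms4a4b (3.26 and 3.28, against at most 3.24 elsewhere). The share of all genes with this order was not counted. Gucy2d, the receptor guanylyl cyclase that defines these neurons, read 5.83, 5.87 and 5.82 in heterozygous cells and 6.00, 7.37 and 7.27 in null cells. On null replicates 2 and 3, where Gucy2d was highest, Ms4a4a, Ms4a6d and Ms4a7 each had at least 1 value within the heterozygous range. Both values of Ms4a4c, Ms4a6b and Ms4a6c lay above it, the lower by 0.00685, 0.00105 and 0.10. By limma 0 of the 4 were called over all arrays, where 0.552% of all genes were, although each was higher at an unadjusted p under 0.05, a level that 9.48% of all genes reached in either direction. Without null replicate 1, limma called 3 of 4 higher, as it did 0.993% of all genes. Car2, a carbonic anhydrase, rose by 2.79 (SE 0.27, limma adjusted p = 0.00443). The phosphodiesterase Pde2a rose by 2.22 (SE 0.10, limma adjusted p = 0.000249) and Gucy2d by 1.48 (SE 0.09, adjusted p = 0.000716). Cnga3 rose by 0.56 (SE 0.13, limma adjusted p = 0.0861) and was not called. In the same fit the 9 Ms4a members had differences between -0.04 and 0.39.

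Markers of ordinary olfactory neurons were lowest on null replicate 1, in 18 of 20 for mature and 17 of 18 for immature neurons, where 32.7% of all genes were lowest. Their median shifts were -1.50 and -1.16. Omp, which encodes olfactory marker protein, read 11.8, 11.8 and 12.1 in heterozygous cells and 9.09, 10.8 and 10.8 in null cells. Gap43, a growth cone protein of immature neurons, read 12.35, 12.36 and 12.45 in heterozygous cells and 11.4, 12.7 and 12.8 in null cells. Ms4a1 shared the low value on null replicate 1 (shift -0.81) with these genes, and so ran opposite to the 6 members that were high there. Its signal there, 4.22, was below that array's lower quartile of genes, and 92.1% of genes had a shift at least as high.

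**Figure D3:**
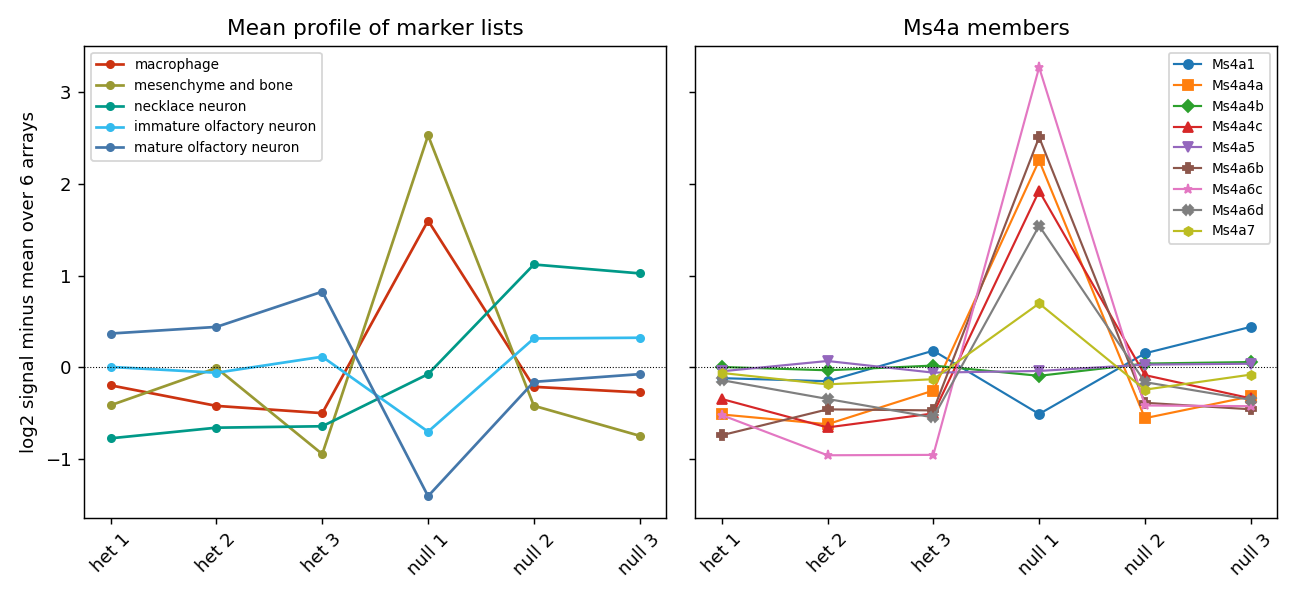
Log2 signal minus its own mean over 6 arrays (vertical axis) on each array for the mean of 5 marker lists (left) and for the 9 Ms4a members (right). Macrophage and mesenchyme means and 6 members peak on null 1. Necklace neuron genes and, less strongly, immature neuron genes peak on null 2 and 3. Mature and immature neuron genes and Ms4a1 dip on null 1.

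Likeness of profile was measured as the root mean square difference between 2 profiles over the 6 arrays, each centred on its own mean, in log2 units. It carries no test, and with 1 array apart it is mostly set by that array. Against the macrophage, mature neuron, immature neuron and necklace neuron means, the 6 members high on null replicate 1 were each nearest to macrophages. Their distances to it were 0.06 for Ms4a6d, 0.18 for Ms4a4c, 0.35 for Ms4a4a, 0.42 for Ms4a7, 0.45 for Ms4a6b and 0.76 for Ms4a6c. The distances of the same genes to the necklace neuron mean were larger, from 0.88 for Ms4a7 to 1.63 for Ms4a6c. Ms4a1, Ms4a4b and Ms4a5 were nearest to the immature neuron mean, at 0.13, 0.30 and 0.33, the last 2 being nearly flat on all arrays.

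With 8 further cell type lists, added after the values were seen, the nearest mean was macrophage for Ms4a4a, Ms4a4c and Ms4a6d but mesenchyme for Ms4a6b (0.32) and Ms4a6c (0.51), and mast cell for Ms4a7 (0.12). The nearly flat Ms4a4b (0.05) and Ms4a5 (0.07) were then nearest to T and NK cells, and Ms4a1 again to immature neurons. Ensheathing glia (0.09) were almost as near to Ms4a6d as macrophages (0.06). Over the 5 arrays without null replicate 1, macrophages were nearest of the first 4 lists for Ms4a4c, Ms4a6c, Ms4a6d and Ms4a7, and immature neurons for Ms4a4a and Ms4a6b. For Ms4a4c the distances to macrophages (0.124) and immature neurons (0.126) were almost equal. Macrophages were also nearest of the 4 for the nearly flat Ms4a4b (0.11) and Ms4a5 (0.12), and immature neurons for Ms4a1. Nearness to macrophages over these arrays was thus not limited to the 6 members. Among all 12 lists the nearest there was again macrophage for Ms4a4c, Ms4a6c and Ms4a6d and immature neuron for Ms4a6b, but B cell for Ms4a7 (0.07, against 0.13 to macrophages) and T and NK cell for Ms4a4a (0.16, against 0.22 to macrophages and 0.16 to immature neurons). For the 3 members that were not high on null replicate 1 it was immature neuron for Ms4a1 (0.11), T and NK cell for Ms4a4b (0.05) and mast cell for Ms4a5 (0.06). The macrophage distances were then between 0.06 and 0.22 for the 6 members, beside 0.13 to 0.21 to immature neurons, and the members' whole range over these arrays was 0.18 to 0.57. Distances to the necklace neuron mean stayed between 0.70 and 0.89.

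Single genes nearest to a member were named for the 5 members with a range of at least 1 log2 unit, which left out Ms4a7 (0.94) and Ms4a1 (0.95). For Ms4a4c they were Pld4 (distance 0.02), Laptm5 (0.08) and Cd52 (0.09), and for Ms4a6c Cmtm5 (0.15), Mpeg1 (0.16) and Hey2 (0.19). Those of Ms4a4a were Cdh19, Hacd4 and Lpar1, at 0.14 to 0.16, and those of Ms4a6b Lpar1, Hacd4 and Bnc2, at 0.15 to 0.16. Ms4a6d was nearest to the probe set annotated as Mir27a (0.05), to Hspg2 (0.06) and to Gfra2 (0.06). Of these 13 genes 2, Laptm5 and Mpeg1, stood in the macrophage list. All 13 were highest on null replicate 1, which follows from their choice by likeness to members that peak there.

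The 6 members high on null replicate 1 lay in 1 stretch of the Ms4a cluster on chromosome 19, together with 2 Ms4a genes that did not lie more than 0.5 above all other arrays there. RefSeq lists 21 Ms4a genes there, of which 19 were analysed, and the 6 fell in a stretch of 8 Ms4a genes from Ms4a7 to Ms4a6d. Within it Ms4a4b (shift -0.14) lay between Ms4a4c and Ms4a6c, and Ms4a4d (0.38) between Ms4a6b and Ms4a6d. Of the 10 Ms4a genes outside the member list, 0 lay more than 0.5 above all other arrays on null replicate 1. Ms4a10 was higher on all null than on all heterozygous arrays (difference 0.34, SE 0.12, adjusted p = 0.443 by limma, and 0.39, SE 0.12, adjusted p = 0.181 without null replicate 1). Like the necklace neuron genes, Ms4a10 was highest on null replicates 2 and 3 (5.62 and 5.50). It read 5.41 on null replicate 1 and at most 5.35 on the heterozygous arrays. Ms4a13 and Ms4a19 had this order too, at signals of at most 3.80 and 3.00. Whether these genes follow the necklace neurons was not tested. Ms4a15, known from lung, stood between 6.12 and 6.40 on all 6 arrays. The related Tmem176a and Tmem176b, which dendritic cells and macrophages use, shifted by 1.57 and 0.99. Unlike the 6 members, they had high signal on the other 5 arrays as well, 7.58 to 8.24 and 9.59 to 10.1.

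**Figure D4:**
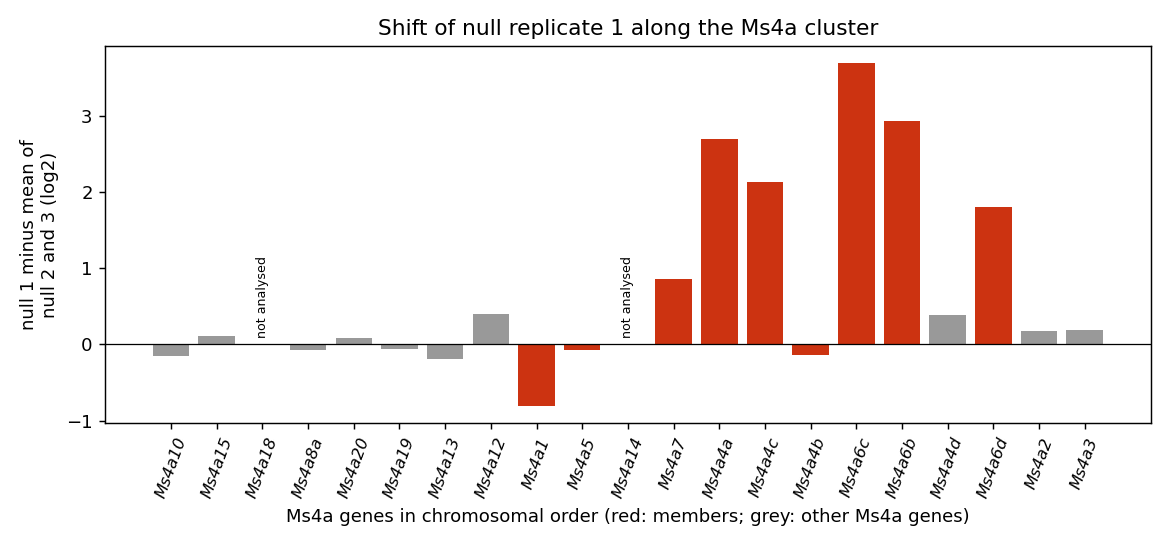
Signal on null replicate 1 minus the mean of null replicates 2 and 3 (vertical axis, log2) for the Ms4a genes in their chromosomal order (horizontal axis; red bars are members, grey bars the other analysed Ms4a genes). The 6 bars from 0.86 to 3.69 lie between Ms4a7 and Ms4a6d, with Ms4a4b (-0.14) and Ms4a4d (0.38) among them.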

How the data were processed

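The authors deposited log2 signals per probe set. The submitters' processing notes name Affymetrix Expression Console and GCRMA. Versions, filters and genome build are not given in the sources used here. Base 2 was taken from the values, which run from 2.14 to 14.5. Labelling started from 100 ng of total RNA. The platform annotation of 2016 gave 1 symbol to 21789 of the 35557 probe sets and several to 1621, and 12147 were not listed; 21698 symbols were updated by Entrez number to RefSeq GRCm38.p6 names. The probe set with the highest mean stood for a gene, and the 9 members have 1 probe set each.

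The genotypes were compared by limma 3.58.1 (R 4.3.3), two-sided, over 19938 genes without a filter. The procedure was tested on simulated data. Exact tests of 3 against 3 values cannot give a p below 0.1 and were not run. Summed signals are sums of 2 to the power of the log2 value. The members, marker lists and named genes (all Ms4a genes, Cd68, the 3 most abundant markers of a list and the nearest 3 genes by profile) were chosen with earlier results of these data known; other named markers were chosen after their values were seen. The labels do not say whether replicate numbers pair the arrays, and the numbers were not used as pairs.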

Additional observations from a re-analysis of the deposited data

How the results depend on the processing

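No Ms4a member was called under any of the 13 alternatives that could be fitted to them (117 values, lowest limma adjusted p 0.274, for Ms4a6c without null replicate 1); the filter on genes above the median mean removed all 9. The differences of Ms4a4a, Ms4a4c, Ms4a6b, Ms4a6c and Ms4a6d were positive in each, that of Ms4a6c from 0.39 to 2.24. Signs turned for Ms4a1 (3 alternatives), Ms4a4b (4, among them quantile normalisation), Ms4a5 (1) and Ms4a7 (2: array weights and without null replicate 1). The count of all genes called, 110 in the fit of all arrays, was 24 with that filter (fewer genes tested), 740 with array weights and 8 in the unmoderated test, where the cause was not tested, and 40 to 531 when 1 array was left out, the highest without null replicate 1. With the replicate number as a block it was 88, of which 0 were members. Same-numbered arrays deviated from their group means with correlations of 0.23, -0.33 and 0.54, and 3 of 6 arrays matched their own number best, so the numbers were not used as pairs. Array number and low signal limit these comparisons.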
